A study of Mus musculus with 3 samples.

Results

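C1q-positive tissue macrophages of the embryonic mouse hindstomach (the glandular stomach) were examined at embryonic day 18.5 in 3 single-cell libraries. The YAP5SA library came from Shh-Cre;YAP5SA stomachs, the Yap knockout library from Shh-Cre;YaploxP/loxP stomachs, and the control library from Shh-Cre stomachs, so all 3 carried the Cre. Shh-Cre is a recombinase made in the epithelium, and YAP5SA is a form of the transcriptional co-activator YAP whose inhibitory phosphorylation sites are mutated. Each genotype is 1 library of an unstated number of embryos, and so differences between genotypes have no replicate check and no p-value. Cells were chosen by a rule on their own transcripts: at least 500 detected genes, at most 20% of UMIs (unique molecular identifiers, 1 per captured RNA molecule) from mitochondrial genes, and at least 1 UMI of at least 4 of the 7 genes C1qa, C1qb, C1qc, Csf1r, Aif1, Pf4 and Ms4a7. The rule was met by 3147 of 21602 cells: 2143 of 9029 in YAP5SA, 445 of 5201 in the Yap knockout and 559 of 7372 in the control.

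Tissue macrophages are long-lived phagocytes that clear dying cells and debris and sense microbes. They depend on the growth factor receptor Csf1r, and in fetal tissues many descend from yolk sac or fetal liver precursors and divide in place. C1qa, C1qb and C1qc encode the chains of C1q, the recognition molecule of the classical complement pathway, and macrophages are its main source. Macrophages belong to the blood lineage and not to the epithelium.

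The rule took in cells of different kinds. The members fell into 1 group in which the 7 genes made up at least 30 of every 10000 UMIs and 1 in which they made up far less. The first group, called marker-rich here, held 975 YAP5SA, 286 Yap knockout and 373 control cells, or 45.5%, 64.3% and 66.7% of the members of each library. The second, marker-poor group held 1168 YAP5SA, 159 Yap knockout and 186 control cells. Between 20 and 50 UMIs per 10000 lay 93 YAP5SA, 30 Yap knockout and 15 control members, and 28, 8 and 4 cells that had missed the rule lay above the limit of 30. This limit was set after the data had been seen, and the rule genes and the limit both come from the cells described, so the levels of these 7 genes are a description. Cells just inside the rule, with 4 of the 7 genes, numbered 806 in YAP5SA, 129 in the Yap knockout and 174 in the control, with medians of 5.46, 2.89 and 3.69 rule-gene UMIs per 10000. Cells just outside it, with 3 genes, numbered 1204, 284 and 401, with medians of 4.86, 2.50 and 3.10.

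**Figure D1:**
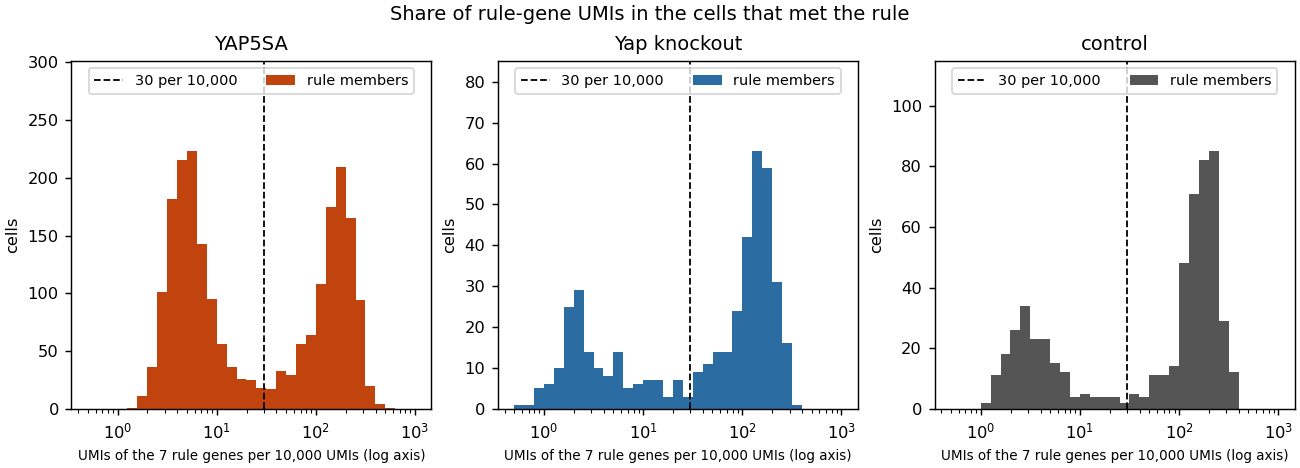
The x axis (log) gives the UMIs of the 7 rule genes per 10000 UMIs of a cell and the y axis the number of cells that met the rule, for YAP5SA, Yap knockout and control; the dashed line stands at 30. Each library shows a separate peak on either side of the line, and the peak on the left holds most of the YAP5SA members.

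Marker-poor cells did not carry the label. They were deep, with a median of 14398 UMIs per cell in YAP5SA, 21725 in the Yap knockout and 16346 in the control, against 5904, 7311 and 4781 in marker-rich cells. The 6 macrophage markers C1qa, C1qb, C1qc, Csf1r, Pf4 and Ms4a7 summed to 498, 260 and 310 CPM (counts per 1000000 UMIs, summed over the cells) in marker-poor cells of YAP5SA, Yap knockout and control, and to 336, 131 and 157 CPM in cells outside the rule. In marker-rich cells they summed to 14471, 12868 and 16471 CPM. Markers of epithelium summed to 7598, 4037 and 1650 CPM in marker-poor cells, above the 4420, 1752 and 919 CPM of cells outside the rule. Fibroblast markers summed to 7293, 1517 and 13389 CPM, below the 13069, 4278 and 21555 CPM of cells outside the rule. Smooth muscle markers went both ways, at 11453, 10679 and 23259 CPM against 9805, 16971 and 16625 CPM. The marker sums follow from how the cells were split and are a description. The name macrophage is used below for the 1634 marker-rich cells, and values over all rule members are given for some results only.

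Marker-rich cells carried the general macrophage genes that the rule did not use. Tyrobp, a signalling adaptor of myeloid receptors, stood at 2508 CPM in YAP5SA, 3328 in the Yap knockout and 2434 in the control, against 250, 249 and 63.9 CPM in all other cells of the same libraries. Adgre1, which encodes the macrophage antigen F4/80, stood at 111, 163 and 145 CPM, against 6.65, 7.83 and 3.21 CPM. Fcgr1, the high-affinity IgG receptor, stood at 216, 176 and 198 CPM, against 10.2, 6.06 and 3.01 CPM. Genes were also ranked by the lowest of the 3 log2 ratios to other cells, with 5 CPM added to each level, and Fcrl2, Apoe, Ccl4, Ltc4s and Crybb1 led. Apoe, the lipid carrier of macrophages and liver, reached 19796 CPM in YAP5SA, 15258 in the Yap knockout and 16401 in the control, which was 24.0, 22.0 and 28.5 times its level in other cells. Trem2, a lipid-sensing receptor, C3ar1, a complement receptor, Mrc1, the mannose receptor, and the chemokines Ccl3 and Ccl12 were also among the first 20 genes of that ranking.

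Transcripts of neighbouring cell types were present in these cells, and the amount differed between libraries. Col1a1, Col1a2 and Col3a1, the fibrillar collagens of fibroblasts, stood at 41.9%, 26.0% and 42.3% of their level in other cells of YAP5SA, Yap knockout and control. The 8 epithelial markers were all detected and summed to 1256, 261 and 208 CPM, the 8 fibroblast markers to 4265, 999 and 8140 CPM, and the 8 smooth muscle markers to 2547, 2320 and 3973 CPM. The 10 gastric secretory markers summed to 59.4, 1409 and 1298 CPM, with Gkn1 and Gkn2 at 0 in YAP5SA. The 10 neutrophil markers summed to 430, 149 and 90.8 CPM, with none at 0. Levels in other cells are therefore given beside many genes, and the part of such transcripts in a difference was not tested.

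The C1q chains differed less between libraries than Pf4 did. C1qa stood at 4179 CPM in YAP5SA, 3292 in the Yap knockout and 3812 in the control, C1qb at 4644, 3020 and 4189 CPM, and C1qc at 3129, 2383 and 2980 CPM. In other cells C1qa stood at 94.2, 27.7 and 35.3 CPM. Of all C1q UMIs, C1qa gave 35.0% (95% interval 34.7 to 35.3) in YAP5SA, 37.9% (37.2 to 38.5) in the Yap knockout and 34.7% (34.1 to 35.3) in the control. C1qb gave 38.9%, 34.7% and 38.1%, so the Yap knockout library had the lowest share of C1qb and the other two were closer together.

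Of the other rule genes, Pf4 differed most. Pf4, which encodes platelet factor 4, a chemokine also made by resident macrophages, stood at 1410 CPM in YAP5SA, 2908 in the Yap knockout and 4136 in the control, against 35.1, 31.5 and 41.5 CPM in other cells. Its ratio to control was 0.341 (0.331 to 0.351) in YAP5SA and 0.703 (0.682 to 0.725) in the Yap knockout. Csf1r stood at 925, 1071 and 1139 CPM, Aif1, a macrophage actin-binding protein gene, at 556, 805 and 617 CPM, and Ms4a7, a membrane protein gene of resident macrophages, at 184, 194 and 217 CPM. All intervals here are exact 95% intervals, of the ratio of a pair of Poisson counts or of a binomial share, and cover counting error only.

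**Figure D2:**
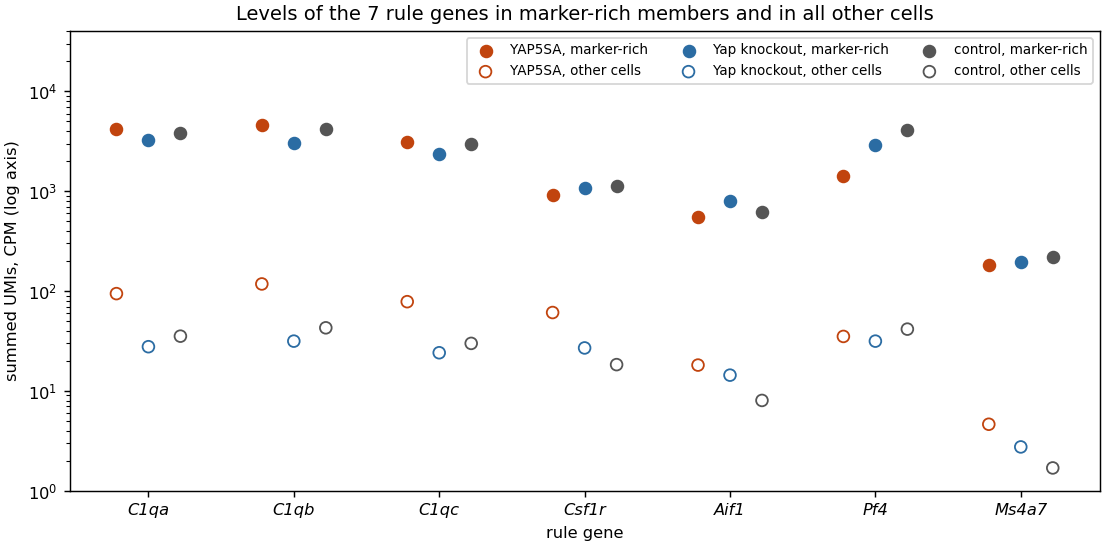
The y axis (log) gives summed UMIs in CPM for each of the 7 rule genes, with filled points for marker-rich members and open points for all other cells of YAP5SA, Yap knockout and control. C1q levels lie closer together across libraries than those of Pf4, which is 1410 CPM in YAP5SA, 2908 in the Yap knockout and 4136 in the control.

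The start regions of rule genes are shown because C1qb and C1qc stood near the control in YAP5SA while Pf4 did not. In the Yap knockout all 3 of these genes were lower than in the control. Each is the 300 bases from 250 before to 50 after the annotated start, from RefSeq on GRCm38.p6: C1qb at chr4:136886151-136886450, minus strand, C1qc at chr4:136892865-136893164, minus strand, and Pf4 at chr5:90772185-90772484, plus strand. Capitals mark GAGGAA or its reverse complement TTCCTC, letters of the purine-rich site bound by PU.1, the macrophage transcription factor encoded by Spi1.
C1qb: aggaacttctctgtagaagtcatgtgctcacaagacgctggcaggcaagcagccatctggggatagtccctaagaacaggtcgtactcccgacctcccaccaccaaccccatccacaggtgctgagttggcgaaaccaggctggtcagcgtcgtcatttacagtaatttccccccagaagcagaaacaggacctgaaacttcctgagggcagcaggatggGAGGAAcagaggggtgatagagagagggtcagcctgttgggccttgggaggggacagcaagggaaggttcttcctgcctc
C1qc: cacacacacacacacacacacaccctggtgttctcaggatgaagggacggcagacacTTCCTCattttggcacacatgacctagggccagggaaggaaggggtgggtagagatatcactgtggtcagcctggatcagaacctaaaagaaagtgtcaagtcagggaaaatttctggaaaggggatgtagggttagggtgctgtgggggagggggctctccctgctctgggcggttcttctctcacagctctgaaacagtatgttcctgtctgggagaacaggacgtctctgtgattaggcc
Pf4: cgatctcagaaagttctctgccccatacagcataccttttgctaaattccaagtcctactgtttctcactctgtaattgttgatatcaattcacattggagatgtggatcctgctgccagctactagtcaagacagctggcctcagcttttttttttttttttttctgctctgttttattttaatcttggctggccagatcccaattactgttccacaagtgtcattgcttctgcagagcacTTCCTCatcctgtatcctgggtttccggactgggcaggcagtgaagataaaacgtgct
Each window held 1 match on either strand. Such a match was present in 9289 of 32851 windows of the same length, or 28.3%, and is a description of letters, not of binding. Spi1 itself stood at 492, 519 and 547 CPM in YAP5SA, Yap knockout and control macrophages.

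Macrophages made up more of the YAP5SA library. Marker-rich cells were 10.8% (10.2 to 11.5) of YAP5SA cells, 5.50% (4.89 to 6.15) of Yap knockout cells and 5.06% (4.57 to 5.58) of control cells. The intervals of YAP5SA and control lay apart, and those of the Yap knockout and control overlapped. By the rule alone the shares were 23.7%, 8.56% and 7.58%. When every cell was thinned to 2000 UMIs first, the rule shares came to 10.9%, 5.92% and 4.71%. A share depends on how many cells of the other types were captured, and with 1 library per genotype the genotype and the dissociation cannot be told apart.

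Cells outside the rule were also counted by markers of other leukocytes. MHC class II cells had at least 3 of H2-Aa, H2-Ab1, H2-Eb1 and Cd74 and at least 1 of Ptprc, Coro1a, Laptm5 and Cd52. They numbered 303 in YAP5SA, 266 in the Yap knockout and 65 in the control. Cells with at least 4 of the 10 neutrophil markers numbered 384, 50 and 28. Tyrobp stood at 364, 489 and 407 CPM in MHC class II cells, against 250, 249 and 63.9 CPM in other cells. Col1a1 stood at 5029, 1071 and 6790 CPM, against 5287, 1733 and 10044 CPM. Whether all of these cells were leukocytes was not tested. Cx3cr1, the receptor of the chemokine fractalkine, which neither choice of cells used, was 18.7, 35.5 and 30.8 times higher in macrophages than in MHC class II cells of YAP5SA, Yap knockout and control. S100a8, a calcium-binding protein gene of neutrophils, stood at 126, 24.98 and 17.9 CPM in macrophages and 305, 107 and 43.7 CPM in other cells.

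In YAP5SA against control, macrophages had more Arg1, Spp1, Gpnmb, Lgals3, Il1a and Il1b, and less Lyve1, F13a1, Mrc1 and chemokine genes of the Ccl2 and Ccl7 kind. Of 3423 genes that reached 50 CPM in 1 of the libraries or both, 89 were at least 2-fold higher (2.6%) and 44 at least 2-fold lower (1.29%), counted on ratios with 5 CPM added to each level. A gene could thus be tested through only the library where it was higher, so counts over lists are a description. Among the 810 tested genes at 2 times the level of other cells or more, 33 were at least 2-fold higher and 19 lower. The median log2 ratio of all tested genes was -0.00. Over all rule members 135 of 3495 genes were at least 2-fold higher (3.86%) and 102 at least 2-fold lower (2.92%), and with TMM scaling these counts were 171 and 73. Among rule-member genes at 2 times the level of other cells or more, the ranking was led by Ins2, Ins1, Alb, Afp and Prtn3, genes of pancreatic islets, liver and myeloid granules. For each gene 1 cell held much of its YAP5SA UMIs: 95.1%, 95.9%, 65.6%, 35.5% and 36.8% in that order.

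The genes of resident scavenger macrophages were lower in YAP5SA. Among 12 tested genes of 18 listed, 9 were at least 2-fold lower, against 1.29% of all tested genes, and none 2-fold higher. The median log2 ratio was -1.10, against 0.05 in other cells. Within the 9, Lyve1, Ccl24 and Folr2 were under 50 CPM in YAP5SA and were tested through the control only. Lyve1, a hyaluronan receptor of perivascular macrophages and lymphatic endothelium, stood at 37.2 CPM in YAP5SA, 139 in the Yap knockout and 213 in the control. YAP5SA was the lowest of the 3, with a ratio to control of 0.174 (0.150 to 0.203). F13a1, the coagulation factor XIII A chain, stood at 152, 383 and 466 CPM, with a ratio of 0.327 (0.300 to 0.357). Mrc1, an endocytic lectin, stood at 163, 290 and 345 CPM, with a ratio of 0.473 (0.431 to 0.519).

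The remaining lower members of that list had the same order or a different one. Ccl24, an eosinophil-attracting chemokine, stood at 36.4, 90.8 and 113 CPM in YAP5SA, Yap knockout and control. Stab1, a scavenger receptor, stood at 308, 492 and 649 CPM. YAP5SA was lowest in both. Folr2, the folate receptor beta, stood at 29.9, 35.3 and 86.2 CPM, Cbr2, a carbonyl reductase, at 50.7, 46.4 and 132 CPM, and Fcna, a ficolin, at 58.7, 50.8 and 127 CPM, so for these 3 genes YAP5SA and the Yap knockout both lay below the control. Gas6, a bridging ligand for dying cells, stood at 133, 199 and 298 CPM, but other cells held 116, 106 and 123 CPM. Igfbp4, Selenop and Ltc4s were lower in YAP5SA by less than 2-fold. Cd163, the haemoglobin scavenger receptor, was under the limit of 50 CPM, at 8.82, 22.6 and 44.0 CPM. Hmox1, the haem-degrading enzyme, is on the haem and iron list and stood at 196, 269 and 416 CPM. Its YAP5SA ratio was 0.471 (0.433 to 0.512). In other cells it stood at 40.3, 42.7 and 81.1 CPM, so it was lower in other cells of YAP5SA too.

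The difference was also seen as fewer cells with a UMI. After each cell had been thinned to 2000 UMIs, which left 854 YAP5SA, 258 Yap knockout and 299 control macrophages, Lyve1 was detected in 5.97% (4.48 to 7.78), 15.5% (11.3 to 20.5) and 23.1% (18.4 to 28.3) of them. In other cells thinned alike it was detected in 1.06%, 0.712% and 1.00%. Unthinned, it was detected in 10.4%, 24.1% and 34.3% of macrophages. Pf4, a rule gene given as a description, was detected in 54.3% (50.9 to 57.7), 77.5% (71.9 to 82.5) and 80.6% (75.7 to 84.9) of thinned macrophages, against 6.13%, 7.07% and 8.16% of other cells. For F13a1 the shares were 23.1%, 40.3% and 46.5%. For Lyve1 and F13a1 the YAP5SA interval lay below the control interval, while those of the Yap knockout and the control overlapped.

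Arg1 and Spp1 stood furthest above the control. Arg1, the arginase of alternatively activated and wound macrophages, had 1340 UMIs in YAP5SA macrophages, 3 in the Yap knockout and 2 in the control, or 185, 1.19 and 0.917 CPM. Its ratio in YAP5SA was 201 (55.6 to 1664), and its UMIs came from 142 of 975 cells. Other cells had 17.5, 13.4 and 7.09 CPM. Over all rule members Arg1 stood at 67.5 CPM in YAP5SA and 8.84 in the control, with a smaller ratio of 7.64 (5.80 to 10.3). Spp1, osteopontin, a secreted adhesion protein of lipid-laden and injury-associated macrophages, stood at 371, 13.1 and 13.8 CPM, against 65.2, 15.4 and 11.9 CPM in other cells. Its ratio in YAP5SA was 27.0 (18.9 to 40.1), and in the Yap knockout it was 0.952 (0.563 to 1.62). Over all rule members its YAP5SA ratio was 5.74 (4.88 to 6.78). Spp1 was detected in 17.2% (14.7 to 19.9), 1.55% (0.424 to 3.92) and 3.01% (1.39 to 5.64) of thinned macrophages, and in 7.62%, 2.11% and 1.38% of other cells, so in the Yap knockout its share was no higher than that of other cells.

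Of the 12 tested lipid-handling and TREM2-associated genes, 4 were at least 2-fold higher in YAP5SA, against 2.6% of all tested genes, and none lower. The list had a median log2 ratio of 0.32, against 0.77 in other cells. Besides Spp1 the 4 were Gpnmb, Lgals3 and Cd9. Spp1 and Gpnmb were under 50 CPM in the control and were tested through YAP5SA only. Gpnmb, a lysosomal glycoprotein, stood at 93.4, 55.9 and 28.0 CPM in YAP5SA, Yap knockout and control, against 7.45, 2.15 and 1.41 CPM in other cells, with a YAP5SA ratio of 3.34 (2.57 to 4.42). Lgals3, galectin 3, stood at 582, 314 and 250 CPM, against 301, 84.0 and 56.7 CPM in other cells, and Cd9, a tetraspanin, at 225, 73.4 and 66.9 CPM, below the 316, 175 and 115 CPM of other cells. Trem2 was at 344, 236 and 297 CPM and Apoe differed by less than 2-fold, and most of the list did not pass 2-fold.

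Inflammatory mediators were higher in part. In YAP5SA 5 of 18 tested genes were at least 2-fold higher, against 2.6% of all tested genes, and none lower. The median log2 ratio was 0.62, but the median in other cells was 1.80. Within the 5, Acod1, Clec4e and Lcn2 were under 50 CPM in the control and were tested through YAP5SA only. Il1b, the cytokine interleukin 1 beta, stood at 501 CPM in YAP5SA, 796 in the Yap knockout and 212 in the control, against 127, 162 and 8.98 CPM in other cells. Il1a, its sister cytokine, stood at 171, 109 and 65.1 CPM, against 17.2, 6.49 and 1.45 CPM in other cells. Acod1, the enzyme that makes itaconate, stood at 59.6, 57.1 and 15.1 CPM, against 27.1, 11.1 and 2.80 CPM in other cells. Lcn2, a siderophore-binding protein made by epithelium and neutrophils, was 51.5, 5.16 and 2.75 CPM in macrophages but 210, 29.0 and 14.9 CPM in other cells. Tnf, at 279, 205 and 174 CPM, did not reach 2-fold.

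Chemokine genes went both ways. Of 14 tested in YAP5SA, Ccl6 and Cxcl16 were at least 2-fold higher and Ccl24, Ccl7 and Ccl2 at least 2-fold lower, with a median log2 ratio of -0.05. The shares over all tested genes were 2.6% higher and 1.29% lower. Ccl7, a monocyte attractant, stood at 195, 471 and 559 CPM in YAP5SA, Yap knockout and control, with a YAP5SA ratio of 0.348 (0.322 to 0.376). Ccl2, the main monocyte attractant, stood at 315, 634 and 693 CPM, with a ratio of 0.455 (0.426 to 0.486). Cxcl16, a membrane-bound chemokine, stood at 370, 253 and 169 CPM, against 66.9, 16.6 and 16.2 CPM in other cells. Its YAP5SA ratio was 2.19 (1.97 to 2.45). Interferon-stimulated genes had a median of -0.46 over 12 tested genes, and none passed 2-fold in either direction.

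Among receptors, Csf2rb and a pair of sugar-binding lectins were higher in YAP5SA. Csf2rb, the shared receptor chain for GM-CSF, interleukin 3 and interleukin 5, stood at 320, 188 and 117 CPM in YAP5SA, Yap knockout and control, against 55.3, 34.7 and 11.5 CPM in other cells, with a YAP5SA ratio of 2.74 (2.41 to 3.13). It was the only gene of 15 tested receptors past 2-fold in YAP5SA. Clec4n (dectin 2) and Clec7a (dectin 1), which bind fungal sugars, stood at 111, 88.4 and 42.2 CPM and at 76.0, 74.9 and 31.6 CPM. They were the 2 of 6 tested sensing genes past 2-fold in YAP5SA, where 2.6% of all tested genes were at least 2-fold higher. The median log2 ratio of the 6 genes was 0.61, against 1.41 in other cells. Clec4n and Clec7a were under 50 CPM in the control and were tested through YAP5SA only. Lilrb4b stood at 356, 116 and 118 CPM, against 63.6, 18.9 and 9.24 CPM in other cells. Malt1, a protease of NF-kB signalling, stood at 222, 102 and 80.2 CPM, against 35.2, 19.5 and 8.63 CPM. Both were thus higher in other cells of YAP5SA too. Zmynd15, Spint1 and Apoc2 complete the 10 highest genes after the insulin genes, with ratios of 7.60, 5.68 and 3.37. In other cells these genes stood at 6.52, 37.6 and 14.2 CPM in YAP5SA and at 3.51, 6.72 and 9.04 CPM in the control. The lowest 12 also held Bmp2, Crybb1, Lyl1, Bin1 and Cryba4, with ratios of 0.348 to 0.435.

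Ins2 and Ins1 headed the YAP5SA ranking because of 1 cell. That cell held 8277 Ins2 and 3658 Ins1 UMIs of 31930 in all, together with 145 rule-gene UMIs and 110 Iapp UMIs, and the next marker-rich cell held 3 insulin UMIs. Ins2 had a UMI in 106 YAP5SA and 1 control marker-rich cells, and kept 2-fold without its top cell. In other cells Ins2 stood at 16.1 CPM in YAP5SA and 0.520 in the control. At the other end, without the limit on other cells, the lowest genes were the gastric products Pga5, Bpifb1, Atp4a, Tff1 and Muc5b. Pga5, a pepsinogen, stood at 22.0, 683 and 519 CPM in YAP5SA, Yap knockout and control macrophages, against 65.3, 4869 and 2106 CPM in other cells. Wfdc2, a secretory epithelial gene, was the highest such gene after insulin, Arg1 and Spp1, at 225, 2.38 and 8.25 CPM against 974, 31.9 and 57.6 CPM in other cells. In other cells, too, each of the 5 gastric genes was lower and Wfdc2 higher in YAP5SA than in the control.

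**Figure D3:**
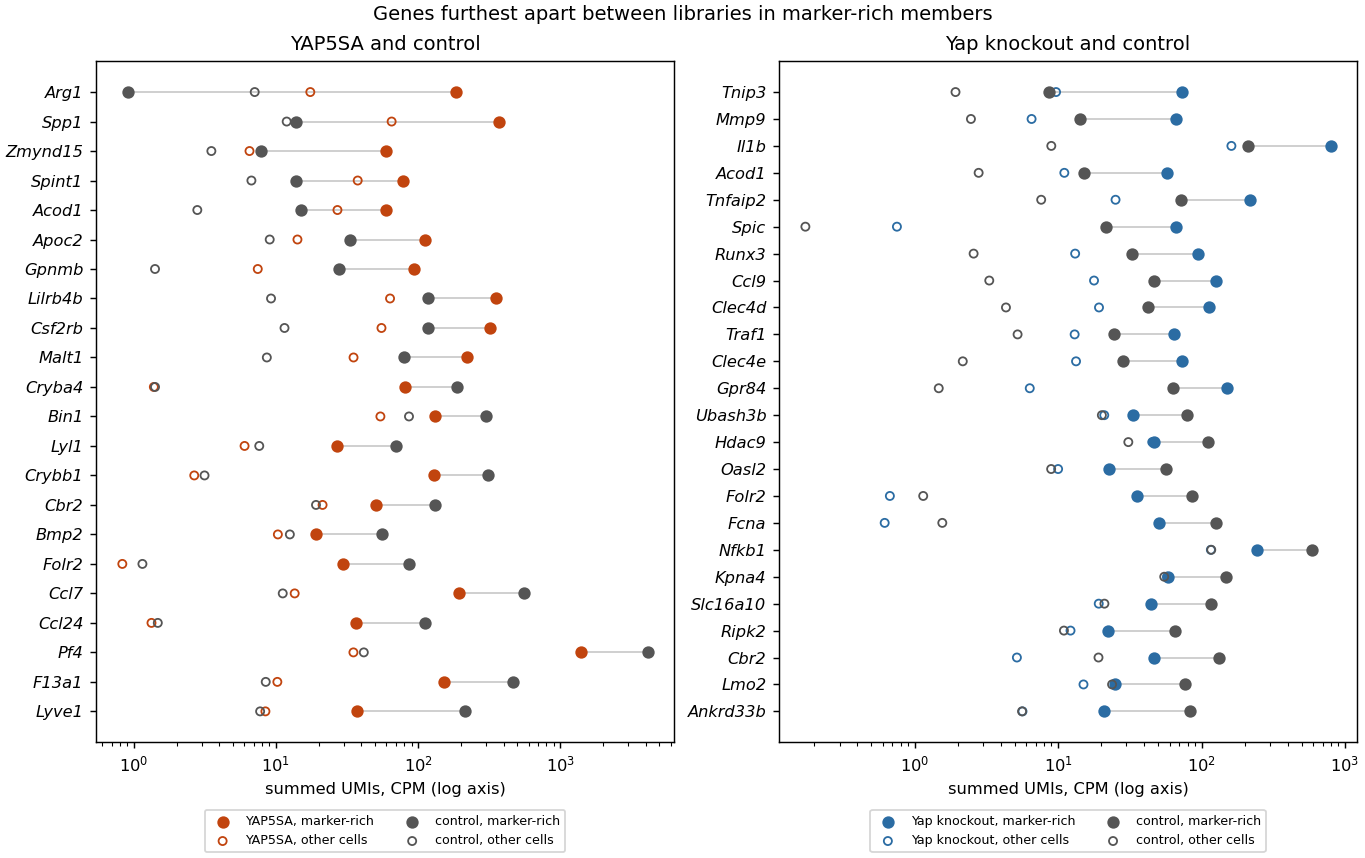
The x axis (log) gives summed UMIs in CPM; filled points are marker-rich members and open points all other cells, on the left for YAP5SA and control and on the right for Yap knockout and control. Each panel lists the genes with the highest ratios at the top and those with the lowest below, without Ins1 and Ins2; Arg1 and Spp1 are widest apart on the left and Tnip3 on the right.

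Some genes of sugar metabolism were higher in YAP5SA. Of 17 tested glycolysis and hypoxia genes 3 were at least 2-fold higher, against 2.6% of all tested genes. The list had a median log2 ratio of 0.62 in macrophages and 0.67 in other cells. Slc2a1, the glucose transporter GLUT1, stood at 181, 65.4 and 59.1 CPM in YAP5SA, Yap knockout and control macrophages, against 306, 51.8 and 57.3 CPM in other cells, and with the profile of other cells subtracted its log2 ratio in YAP5SA was 0.58. None of the 17 was at 2 times the level of other cells. Of 10 tested monocyte genes 5 were at least 2-fold higher, with a median of 0.94 against 0.82 in other cells, and of these only Clec4e was above 2 times the level of other cells. Of the haem and iron genes, Hp and Trf were at least 2-fold higher in YAP5SA and Hmox1 at least 2-fold lower. Lysosomal genes (median 0.08 over 25 tested) and macrophage transcription factors (-0.06 over 12 tested) had none past 2-fold.

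Arg1 marked a subset of the YAP5SA macrophages. After thinning, 79 cells had an Arg1 UMI and 775 had none. Spp1 was detected in 44.3% (33.1 to 55.9) of the cells with Arg1 and in 14.5% (12.1 to 17.1) of those without. Lgals3 was detected in 86.1% and 46.8%, and Il1b in 60.8% and 33.5%. The resident genes went the other way: Mrc1 was detected in 5.06% (1.40 to 12.5) of cells with Arg1 and 28.4% (25.2 to 31.7) of those without, and the rule gene Pf4 in 22.8% and 57.5%. As a description, since the C1q genes are rule genes too, cells with Arg1 had a median of 110 C1q UMIs per 10000, against 130 in cells without. Their median depth before thinning was 8331 and 6659 UMIs, and 5.06% and 13.2% of them were among the highest 6% of doublet scores. Gpnmb was detected in 10.1% and 11.4%, with overlapping intervals.

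Lyve1 marked another subset, present in all 3 libraries. In cells with a Lyve1 UMI, Mrc1 was detected in 60.8% in YAP5SA, 70.0% in the Yap knockout and 72.5% in the control, against 24.0%, 29.4% and 32.6% of cells without Lyve1. F13a1 was detected in 68.6%, 77.5% and 72.5% of cells with Lyve1, against 20.2%, 33.5% and 38.7%. Gpnmb was detected in 0 of 51, 0 of 40 and 0 of 69 cells with Lyve1, which allows shares of up to 6.98%, 8.81% and 5.21% (exact upper bounds), against 11.96%, 6.42% and 5.65% of cells without. In YAP5SA the bound lay below the interval of cells without Lyve1, which began at 9.79%. In the Yap knockout and the control the intervals overlapped, and a difference was not detectable there at this depth.

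**Figure D4:**
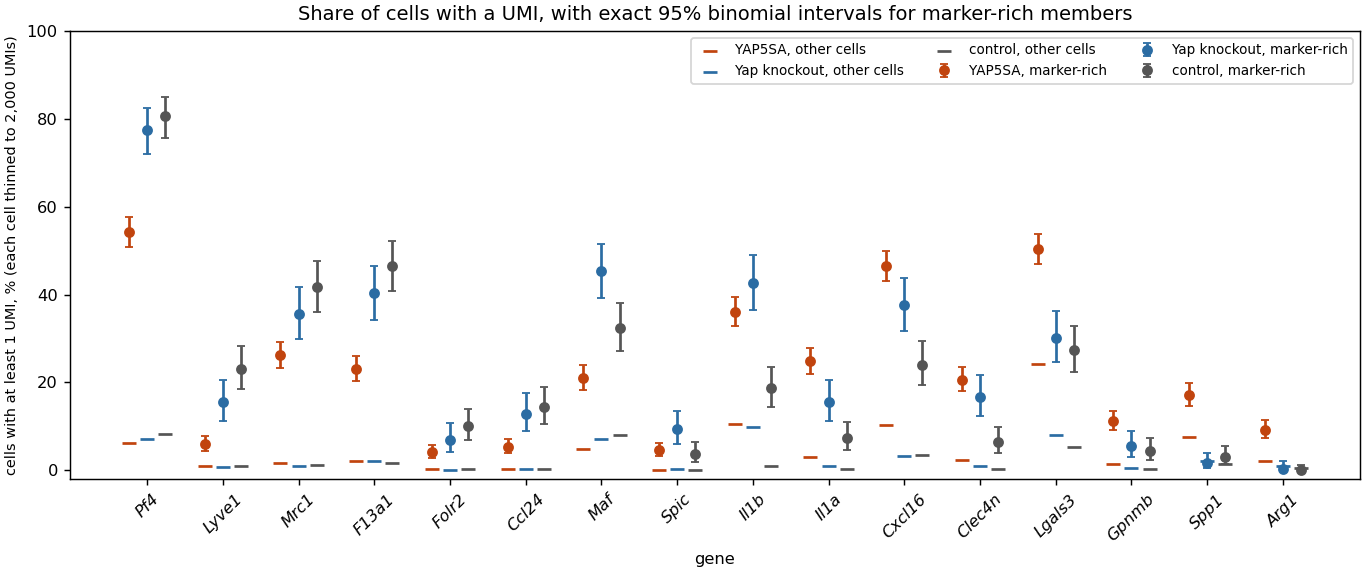
The y axis gives the percentage of cells with at least 1 UMI of each gene after thinning every cell to 2000 UMIs; points with exact 95% binomial intervals are marker-rich members and dashes other cells, for YAP5SA, Yap knockout and control from left to right. Lyve1 was detected in 5.97%, 15.5% and 23.1% and Spp1 in 17.2%, 1.55% and 3.01% of macrophages in that order.

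In the Yap knockout against control, macrophages had more Il1b, Tnip3, Acod1, Spic and Il10, and less Cbr2, Folr2, Fcna and Nfkb1. Both comparisons use the same control library. Of 3321 tested genes 49 were at least 2-fold higher (1.48%) and 139 at least 2-fold lower (4.19%). This split depended on the scaling, being 75 and 87 with TMM factors and 78 and 88 with DESeq2 size factors. Among the 796 tested genes at 2 times the level of other cells or more, 25 were at least 2-fold higher and 25 lower. The median log2 ratio of all tested genes was -0.09 per total UMIs, 0.09 with TMM and 0.09 with DESeq2 factors, and in YAP5SA it was -0.00, 0.10 and 0.06. Over all rule members 126 of 3475 genes were at least 2-fold higher (3.63%) and 179 lower (5.15%), led by Fabp2, Apoc3 and Apoa4, genes of absorptive epithelium. For each of these genes 1 cell held 59.8%, 37.4% and 35.5% of its Yap knockout UMIs.

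Inflammatory mediators included several higher genes. Of 17 tested genes 6 were at least 2-fold higher, against 1.48% of all tested genes, and none lower. The median log2 ratio was 0.68, against 0.86 in other cells. Within the 6, Il1rn, Acod1, Clec4d and Clec4e were under 50 CPM in the control and were tested through the Yap knockout only. Il1b had a ratio of 3.76 (3.40 to 4.17), at 796 CPM in the Yap knockout and 212 in the control. It was detected in 42.6% (36.5 to 48.9) of thinned Yap knockout macrophages and 18.7% (14.5 to 23.6) of control macrophages, against 9.87% and 0.986% of other cells. Il1rn, the antagonist of the interleukin 1 receptor, stood at 109 CPM in the Yap knockout and 46.3 in the control, with a ratio of 2.36 (1.87 to 2.99). Ptgs2, the inducible cyclooxygenase, stood at 135 CPM in the Yap knockout and 63.7 in the control. Acod1, Clec4d and Clec4e, the last of which is the receptor Mincle, were also at least 2-fold higher, with ratios of 3.78, 2.65 and 2.57. With the profile of other cells subtracted, Il1rn (log2 ratio 0.89), Ptgs2 (0.75) and Clec4e (0.97) no longer reached 2-fold, while Il1b, Acod1 and Clec4d did.

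Outside that list, Tnip3, an inhibitor of NF-kB signalling, stood at 73.0 CPM in the Yap knockout and 8.71 in the control, with a ratio of 8.38 (5.21 to 14.2). Its 184 UMIs came from 40 of 286 cells. Tnfaip2 stood at 217 and 72.4 CPM, and Il10, an anti-inflammatory cytokine, at 129 and 55.9 CPM in Yap knockout and control. Tnfrsf1b, a TNF receptor, stood at 180 and 76.1 CPM. After subtraction the log2 ratios of Il10 and Tnfrsf1b were 0.91 and 0.93, under 2-fold. Runx3, a transcription factor of leukocytes, stood at 95.2 and 32.5 CPM, the chemokine Ccl9 at 125 and 46.3 CPM, the adaptor Traf1 at 64.6 and 24.8 CPM, and Gpr84, a fatty acid receptor, at 151 and 63.3 CPM. In other cells of Yap knockout and control, Tnip3 stood at 9.69 and 1.93 CPM and Tnfaip2 at 25.2 and 7.63 CPM. Runx3 stood there at 13.2 and 2.58 CPM, Ccl9 at 17.8 and 3.32, Traf1 at 13.1 and 5.23, and Gpr84 at 6.35 and 1.47. Each of these genes was thus higher in other cells of the Yap knockout too. Mmp9, a matrix protease also made by neutrophils, stood at 66.2 and 14.2 CPM, but its 167 UMIs came from 18 cells.

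Spic, the transcription factor of iron-recycling macrophages, was higher in the Yap knockout and not in YAP5SA. It stood at 66.2 CPM in the Yap knockout, 23.7 in YAP5SA and 21.5 in the control, with ratios to control of 3.07 (2.21 to 4.34) and 1.10 (0.792 to 1.55). In other cells it stood at 0.754, 0.501 and 0.173 CPM. It was detected in 9.30% (6.05 to 13.5) of thinned Yap knockout macrophages, 4.57% (3.27 to 6.19) of YAP5SA and 3.68% (1.85 to 6.49) of control macrophages, and the Yap knockout and control intervals overlapped. Of 13 tested macrophage transcription factors Spic was the only one at least 2-fold higher and Klf4 the only one at least 2-fold lower. Maf, a factor of resident macrophages, stood at 304 CPM in the Yap knockout, 114 in YAP5SA and 214 in the control, with ratios of 1.42 (1.26 to 1.60) and 0.531 (0.473 to 0.596) that did not reach 2-fold.

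The resident scavenger genes were at least 2-fold lower in the Yap knockout for 3 of 12 tested members, against 4.19% of all tested genes. They were Cbr2, Fcna and Folr2, and the list had a median log2 ratio of -0.48, against -0.15 in other cells. Cbr2 and Folr2 were under 50 CPM in the Yap knockout and were tested through the control only. Cbr2 had a ratio of 0.350 (0.280 to 0.436), Fcna of 0.401 (0.323 to 0.497) and Folr2 of 0.410 (0.315 to 0.530). In other cells of Yap knockout and control, Cbr2 stood at 5.17 and 19.1 CPM, Fcna at 0.619 and 1.56, and Folr2 at 0.673 and 1.15. Each was thus lower in other cells of the Yap knockout too. Lyve1, by contrast, had a ratio of 0.651 (0.565 to 0.750) and Mrc1 of 0.841 (0.759 to 0.932). Nfkb1, an NF-kB subunit, stood at 243 CPM in the Yap knockout and 592 in the control, with 602 CPM in YAP5SA. It was detected in 31.0% (25.4 to 37.0) of thinned Yap knockout macrophages and 58.9% (53.1 to 64.5) of control macrophages. The other lowest genes were Ankrd33b, Lmo2, Ripk2, Slc16a10, Kpna4, Oasl2, Hdac9 and Ubash3b, with ratios of 0.255 to 0.422, and of these Oasl2, Hdac9 and Ubash3b did not keep 2-fold under TMM or DESeq2 scaling.

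Of 20 tested immediate early and heat shock genes, 3 were at least 2-fold lower, against 4.19% of all tested genes. They were Klf2, Fosb and Dnajb1, and the list medians were -0.46 in macrophages and -0.51 in other cells. With the other cells' profile subtracted the median was 0.03, the log2 ratio of Dnajb1 was -0.53, and Klf2 turned, at 21.6 CPM in the Yap knockout and 0 CPM in the control. Such genes are known to respond to tissue dissociation, whose part was not tested. MHC class II genes had a median of 0.36 over 6 tested genes, with none past 2-fold, against 1.32 in other cells. With the profile of other cells subtracted their median was -0.01. H2-Aa stood at 459 CPM in the Yap knockout, 213 in YAP5SA and 282 in the control. Its levels in other cells were 200, 120 and 65.9 CPM in that order. Ly6c2, a marker of blood monocytes, stayed under the 50 CPM limit but stood at 46.0 CPM in the Yap knockout, 19.6 in YAP5SA and 5.96 in the control. In other cells it stood at 13.2, 20.4 and 3.79 CPM in that order. Ccr2, the monocyte receptor for Ccl2, stood at 25.4, 14.0 and 7.79 CPM in the same order, against 4.31, 3.42 and 0.932 CPM in other cells. Plac8 stood at 121, 41.6 and 44.9 CPM, against 104, 76.3 and 55.8 CPM, so only in the Yap knockout was it above other cells. Timd4, a receptor of long-resident macrophages, stood at 15.5, 11.98 and 7.79 CPM. Without the limit on other cells, the lowest genes were Col1a1, Col1a2, Plac9, Dcn and Dlk1, of fibroblasts, and the highest after Tnip3 included Apoa4, Uchl1 and Cmss1, whose levels in other cells of the Yap knockout were higher still.

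**Figure D5:**
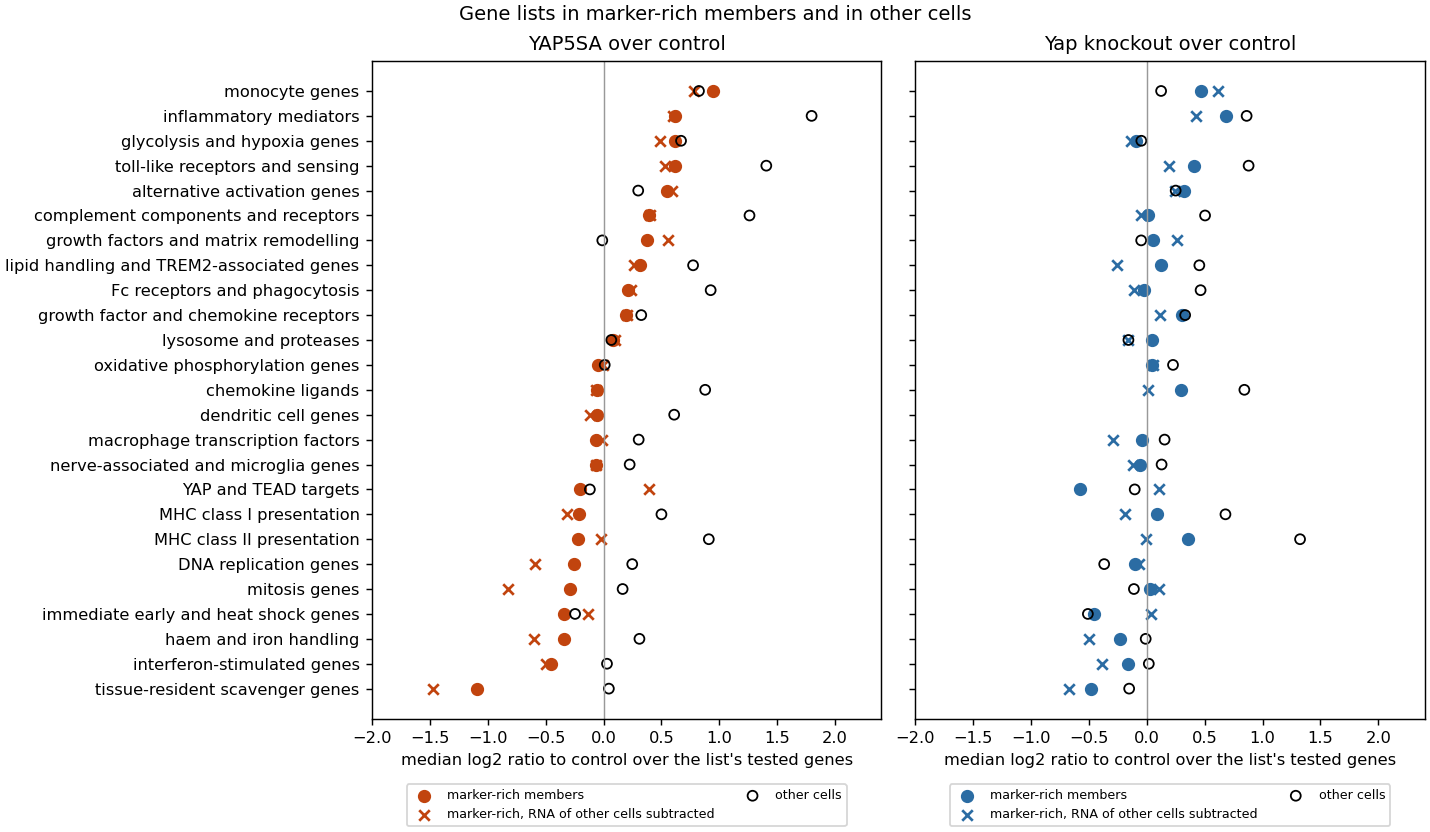
The x axis gives the median log2 ratio to control over the tested genes of each list, on the left for YAP5SA and on the right for the Yap knockout; filled points are marker-rich members, crosses the same with the profile of other cells subtracted, and open points other cells. Resident scavenger genes stand apart from other cells in YAP5SA (-1.10 against 0.05), while inflammatory mediators were above 0 in macrophages and in other cells of both libraries.

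Dividing cells were present in all 3 libraries. At least 3 mitosis genes were detected in 11.6% (9.52 to 13.9) of thinned YAP5SA macrophages, 16.3% (11.99 to 21.4) of Yap knockout and 16.1% (12.1 to 20.7) of control macrophages, and in 13.9%, 11.2% and 11.1% of other cells. At least 3 DNA replication genes were detected in 13.5%, 20.2% and 19.1% of macrophages and in 15.2%, 8.70% and 12.02% of other cells. Unthinned, the mitosis shares were 39.2%, 37.8% and 37.0%. The intervals of the libraries overlapped. Top2a, the topoisomerase of dividing cells, stood at 40.1, 74.2 and 63.3 CPM, against 50.1, 68.1 and 48.3 CPM in other cells.

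Yap1 was low in macrophages of every library. It stood at 22.9 CPM in YAP5SA, 13.1 in the Yap knockout and 22.0 in the control, against 58.0, 45.1 and 55.2 CPM in other cells. The ratio was 1.04 (0.750 to 1.46) in YAP5SA and 0.595 (0.370 to 0.946) in the Yap knockout, on 166, 33 and 48 UMIs. Of the 20 listed YAP and TEAD targets 4 could be tested, none passed 2-fold in either comparison, and Ccn1, the most used of them, stood at 81.4, 58.7 and 117 CPM against 260, 307 and 312 CPM in other cells. Because 3′ tags need not lie in the deleted part, Yap1 counts do not check the genotypes.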

How the data were processed

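Single cells of E18.5 hindstomach were released with trypsin and DNase I, red cells were lysed, and 3′ libraries were made with the DNBelab C Series kit, per the labels' protocols. The deposited files hold unnormalised UMI counts for each gene in each cell; per the file headers, the program was PISA 1.0. STAR and GRCm39 are named in the submitters' processing notes, and the sources used here name no correction for free RNA. The libraries held 9439 YAP5SA, 5739 Yap knockout and 7692 control cells with 65843658, 40857358 and 48910624 UMIs. Cell names are running numbers, so the 1388 to 2409 names that pairs of libraries share do not mark shared cells. Macrophage sums held 7259882, 2521814 and 2181778 UMIs in YAP5SA, Yap knockout and control.

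The members, gene lists and named genes were chosen with earlier results of these data known, and the limit of 30 rule-gene UMIs per 10000 was set after seeing these cells. UMIs were summed over cells and scaled to CPM. Genes needed 50 CPM in either library; log2 ratios used a pseudocount of 5 CPM; a call means 2-fold. The 12 highest and lowest genes at 2 times the level of other cells or more, the 5 highest and lowest without that limit, a fixed set, and up to 4 genes at either end of a list could be named, leaving out mitochondrial, ribosomal protein, haemoglobin and predicted genes. Other named genes, among them Tyrobp, S100a8, Tnf, Tnfrsf1b and further members of the inflammatory and resident lists, were chosen after their values were seen. The result of 1 marker list is not reported here. No test was run, since each genotype has 1 library. Ratios have exact conditional Poisson intervals and shares Clopper-Pearson intervals at 95%; both cover counting error only. The ratios, intervals and 2-fold calls were run on simulated Poisson counts. Such counts have no spread between cells or libraries, so they check the computation only. Scrublet (scanpy 1.11.5) called 0 doublets in each library, so the highest 6% of scores were left out as an alternative. TMM (edgeR 4.0.16) and size factors (DESeq2 1.42.0) in R 4.3.3 served as other scalings, and the profile of other cells, scaled by the collagen genes, was subtracted as another. Sums, ratios and intervals were computed in Python 3.11.15 (scipy 1.17.1, pandas 2.3.3, numpy 2.4.6).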

Additional observations from a re-analysis of the deposited data

How the results depend on the processing

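No paired analysis was possible because each genotype has 1 library. The share of cells that met the rule moved with the definition. It was 37.1% in YAP5SA, 14.0% in the Yap knockout and 13.02% in the control with 3 genes, 14.8%, 6.08% and 5.22% with 5 genes, and 10.9%, 5.92% and 4.71% after thinning. With 1000 detected genes it was 26.2% in YAP5SA and 9.86% in the Yap knockout, and with the highest doublet scores left out 22.7% in YAP5SA. The marker-rich share of YAP5SA was 9.83% with 5 genes and 9.98% without the highest doublet scores. Leaving out cells with 3 markers of another type left 0.0665%, 0.0769% and 0% of cells for either definition, so no gene values could be had. For rule members, genes at least 2-fold higher and lower in YAP5SA numbered 349 and 231 at 10 CPM, 395 and 249 without a limit, and 89 and 44 in marker-rich cells; lower genes numbered 58 when each cell weighed the same, and higher genes 260 after subtraction. In the Yap knockout they numbered 357 and 381 at 10 CPM and 384 and 413 without a limit, and 49 genes were higher in marker-rich cells. For marker-rich cells the counts were 229 and 128, and 268 and 140, in YAP5SA under those limits. In the Yap knockout they were 124 and 426, 147 and 488, 75 and 87 with TMM and 78 and 88 with DESeq2 factors, and 76 higher after subtraction. The cause was not tested. The median log2 ratio of YAP and TEAD targets turned to -0.21 in YAP5SA for marker-rich cells and to 0.10 in the Yap knockout after subtraction, where YAP5SA gave 0.39; both values are that of Axl, the only listed gene left at 50 CPM. For rule members of the Yap knockout, chemokine ligands turned to -0.15 after subtraction and cholesterol genes to -0.42 in marker-rich cells.

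The resident scavenger median in YAP5SA macrophages stayed between -1.47 and -0.99 over the alternatives, and in the Yap knockout between -0.67 and -0.29. Inflammatory mediators stayed between 0.57 and 0.74 in YAP5SA and between 0.43 and 0.87 in the Yap knockout. Of the 12 highest and 12 lowest genes of each comparison, Ins1 lost 2-fold without its top cell, at 50 rule-gene UMIs per 10000, without the highest doublet scores and without cells of 3 MHC class II genes, Crybb1 when cells weighed the same, Mmp9 without cells of 3 MHC class II genes, and Clec4e and Gpr84 after subtraction. Of other genes named at 2-fold, Il1rn, Ptgs2, Il10, Tnfrsf1b and Dnajb1 in the Yap knockout and Lcn2 and Slc2a1 in YAP5SA lost it after subtraction. In the Yap knockout Folr2 lost it without cells of 3 MHC class II genes and when cells weighed the same, and Hdac9, Oasl2 and Ubash3b with TMM and DESeq2 factors. Depth limits genes under 50 CPM, such as Cd163, Timd4 and Ccr2.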
